A study of Rattus norvegicus with 98 samples.

Results

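The regions described here are 887 windows of 1 kb on chromosomes 1 to 20 of the Rn5 rat genome, out of 284178 windows that were occupied in at least 1 library. They were chosen by H3K27ac peaks in the ventral tegmental area (VTA) and the periaqueductal grey (PAG), 2 neighbouring regions of the midbrain. A library occupied a window when its peaks covered 500 bp or more of the 1 kb. The 887 windows were occupied in 5 or more of the 8 VTA and PAG libraries and in at most 15% of the other 84 libraries, that is in at most 12 of them. All of these values come from the peak lists, so membership and the number of libraries per window are given as a description, with no test. The rule was meant to mark windows restricted to the midbrain, and the data went against that name: the windows were mostly PAG windows shared with locus coeruleus (LC) and Raphe, and each was also occupied in at least 1 library from outside VTA and PAG.

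H3K27ac is acetylation of lysine 27 on histone H3. It is laid down by acetyltransferases such as p300 and CBP at active promoters and enhancers and is removed by histone deacetylases, and enhancers carrying it tend to differ more between cell types than promoters do. VTA holds dopamine neurons that project to the forebrain. PAG surrounds the cerebral aqueduct and takes part in pain control and defensive behaviour. LC is the main source of noradrenaline in the forebrain, the raphe nuclei are the main source of serotonin, and Snt, the nucleus tractus solitarius, receives visceral input in the medulla. LC, Raphe and Snt are called hindbrain below, although raphe nuclei also reach into the midbrain and the labels do not say which of them was taken.

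The animals were male Long-Evans rats of 2 months at the start. FT rats received fluoxetine, a serotonin reuptake inhibitor, at 18 mg per kg per day in the drinking water for 6 weeks, and Sham rats received water without it. Punches of several animals were pooled for each library, and the labels give 2 replicates per treatment (fewer in arc, MPOA and PVN), so a library is a pool and not an animal. Chromatin of a punch comes from all cells in it, and fewer cells of a type cannot be told apart from less acetylation per cell. From 24 regions 92 lists were used, with 19378 to 54505 peaks each, and the VTA and PAG lists held 30192 to 48259. HB, which has 1 Sham and 1 FT library, took no part in the rule. The number of reads behind a list is unknown, so a longer list cannot be told apart from a deeper library. Genes are not named, because no Rn5 annotation was used, and the tissue labels could not be compared with marker genes for the same reason.

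The libraries of VTA and PAG were not each other's closest relatives. Over all windows, the Jaccard index (windows occupied in both libraries divided by windows occupied in either) of VTA with PAG libraries had a mean of 0.384. It was 0.650 for VTA with Raphe, 0.659 for VTA with Snt and 0.549 for PAG with LC. The mean index of a VTA library with the other 3 of its region was 0.682 and 0.592 in Sham (replicate 1 first). In FT it was 0.688 and 0.685, so VTA Sham replicate 2 had the lowest index with the rest. That library also had the shortest VTA list, with 32828 peaks. A short list bounds its index with longer ones, and the part of this was not tested. VTA Sham replicate 1 was most similar to Raphe Sham replicate 1 (0.724), ahead of VTA FT replicate 2 (0.712), and VTA FT replicate 2 was also closer to Raphe Sham replicate 1 (0.723) than to VTA Sham replicate 1. Many memberships rested on VTA Sham replicate 1, and results that rest on it are given with and without it.

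PAG supplied most of the occupancy. With replicate 1 given first, here and below, the Sham libraries of PAG occupied 95.6% and 78.8% of the 887 windows and its FT libraries 96.6% and 97.1%. The Sham libraries of VTA occupied 69.9% and 12.3% and its FT libraries 34.4% and 39.8%. Every PAG library was above every VTA library, and VTA Sham replicate 1 was the highest and VTA Sham replicate 2 the lowest of the 4 VTA libraries. The means were 39.1% ± 23.7 in VTA and 92.0% ± 8.83 in PAG (SD, n = 4). VTA minus PAG was -52.9 percentage points, and it was negative in 4 of 4 pools. The rule chose the windows on these same libraries, so the difference is a description. Without VTA Sham replicate 1 the VTA mean was 28.8% ± 14.6 (SD, n = 3).

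All 4 PAG libraries occupied 680 of the 887 windows (76.7%), and all 4 VTA libraries occupied 31 (3.49%). The most frequent combination was 4 PAG libraries and 1 VTA library, with 556 windows (62.7%). Among all 46848 windows in 5 or more of the 8 libraries, whatever their occupancy elsewhere, that combination made up 4.07%. More PAG than VTA libraries were occupied at 778 windows, more VTA than PAG at 64, and the same number at 45. Only 79 windows (8.91%) were occupied in 3 or more libraries of each region, and 4 windows in all 8.

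**Figure D1:**
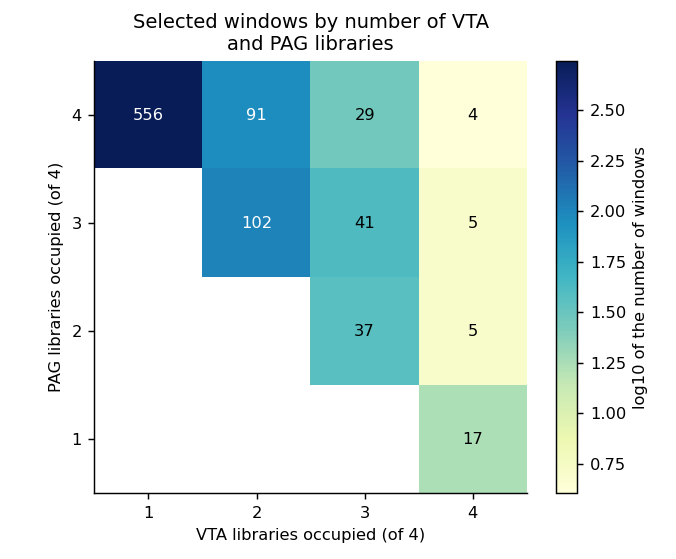
Number of selected windows for each count of VTA libraries (horizontal axis, of 4) and PAG libraries (vertical axis, of 4) that occupied them, with colour as log10 of the number of windows; empty cells are excluded by the rule. The cell with 4 PAG libraries and 1 VTA library holds 556 of the 887 windows, and the cell with all 8 libraries holds 4.

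A single library set many of the memberships. VTA Sham replicate 1 was the only VTA library at 389 windows (43.9%), against 77 for VTA FT replicate 2, 66 for VTA FT replicate 1 and 24 for VTA Sham replicate 2. At those 389 windows all 4 PAG libraries were occupied, and the mean share was 90.4% in LC and 70.0% in Raphe. With that library left out and 5 or more of the remaining 7 required, 411 windows met the rule, all of them among the 887. Their mean share was 49.7% in VTA, 92.2% in PAG, 57.5% in LC and 48.4% in Raphe, so PAG stayed the highest region and LC stayed above VTA. Because 712 windows (80.3%) stood at exactly 5 of 8 libraries, leaving out any 1 library lowers the count by construction: it was 198 to 317 without 1 PAG library and 678 to 822 without 1 of the other VTA libraries.

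The thresholds cut through a steep distribution. Just below the midbrain limit, at 4 of the 8 libraries, lay 8331 windows within the limit on other libraries. Of these, 7741 were occupied in all 4 PAG libraries and in no VTA library, and 160 in all 4 VTA libraries and in no PAG library. At the other limit, 133 members were occupied in exactly 12 other libraries and 132 windows just outside in 13. Taken alone, PAG had 14373 windows in 3 or more of its 4 libraries and within the limit on others, of which 828 (5.76%) were members. VTA had 1099 such windows, of which 138 (12.6%) were members.

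The same rule was applied to 4 other pairs of neighbouring regions. It found 1797 windows for NaCshell and NaCcore of the nucleus accumbens, 603 for LS and MS of the septum, 1564 for BLA and CMA of the amygdala and 6934 for dorDG and venDG of the dentate gyrus. Windows in 3 or more libraries of each region made up 8.91% of the VTA and PAG set, 10.8% of the septum set, 24.3% of the amygdala set, 30.3% of the accumbens set and 44.2% of the dentate gyrus set. The share in no library outside the pair was 0% for VTA and PAG and 1.28% to 26.9% for the other pairs. The highest region outside the pair occupied 69.3% of the VTA and PAG windows (LC), against 15.6% to 41.3% in the other sets. The VTA and PAG set thus had the lowest value of evenness and the highest value of occupancy elsewhere among the 5 sets, and the differences between sets were not tested.

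Outside VTA and PAG, the windows were found mainly in the hindbrain, which the rule sets in part. It allowed at most 12 other libraries, as many as the hindbrain has, while 72 libraries lay outside midbrain and hindbrain. A window occupied widely across those 72 could not be a member. Of 7715 occupancies in the other 84 libraries, 5361 (69.5%) were in the 12 hindbrain libraries. The median window was occupied in 9 other libraries, 6 of them hindbrain. At least 1 hindbrain library was occupied at 876 windows (98.8%), at least 3 at 779 (87.8%) and all 12 at 13. No library outside midbrain and hindbrain was occupied at 246 windows (27.7%). The 11 windows in no hindbrain library were occupied in 1 to 12 libraries of the diencephalon and telencephalon.

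LC had the second highest share after PAG. Its Sham libraries occupied 84.9% and 59.1% of the windows and its FT libraries 75.9% and 57.5%. Each LC library was above 3 of the 4 VTA libraries, and 2 of them were above VTA Sham replicate 1 as well. LC libraries outnumbered VTA libraries at 590 windows (66.5%), and VTA libraries outnumbered LC libraries at 188. All 4 LC libraries were occupied at 405 windows, against 31 for VTA.

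Raphe divided by treatment. Its Sham libraries occupied 47.0% and 33.6% of the windows and its FT libraries 81.3% and 67.4%. Both FT libraries were above both Sham libraries, with means of 74.4% ± 9.81 in FT and 40.3% ± 9.49 in Sham (SD, n = 2). The difference was 34.0 percentage points and is given with no test, since the rule counted these libraries among the other 84. Of the 816 windows occupied in Raphe, 173 (21.2%) were FT-only, that is held by both FT libraries but by neither Sham library, against 5.29% of all windows occupied in Raphe. Sham-only windows, the reverse, numbered 8 (0.980%), against 1.89% of all windows. This split was noticed after the values were seen. The FT lists of Raphe held 52383 and 46736 peaks and its Sham lists 47700 and 43742. Of the 14373 PAG windows, the FT libraries of Raphe occupied 41.6% and 31.6% and its Sham libraries 7.86% and 5.38%. The part of either in the result was not tested. The mean of Raphe Sham alone (40.3%) was close to that of VTA (39.1%), and both Raphe Sham libraries lay within the range of the VTA libraries.

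Snt followed VTA, with 37.3% and 11.7% in its Sham libraries and 24.6% and 24.1% in its FT libraries. Its range overlapped that of VTA, and the 2 regions do not differ beyond the spread of their libraries. Below Snt came PVN with 12.9% and arc with 12.7%, from 2 and 3 libraries. MDT (6.37%), LH (6.34%), dorDG (6.17%), VMH (5.81%) and MPOA (3.31%) were next, and the ranges of these 5 overlapped. The other 12 regions, all of the telencephalon, had means of 0.986% (NaCshell) to 3.18% (venDG). No library outside midbrain and hindbrain exceeded 15.1%. By division the mean of the region means was 65.6% in the midbrain, 50.4% in the hindbrain, 7.90% in the diencephalon with the preoptic area, and 2.26% in the telencephalon.

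**Figure D2:**
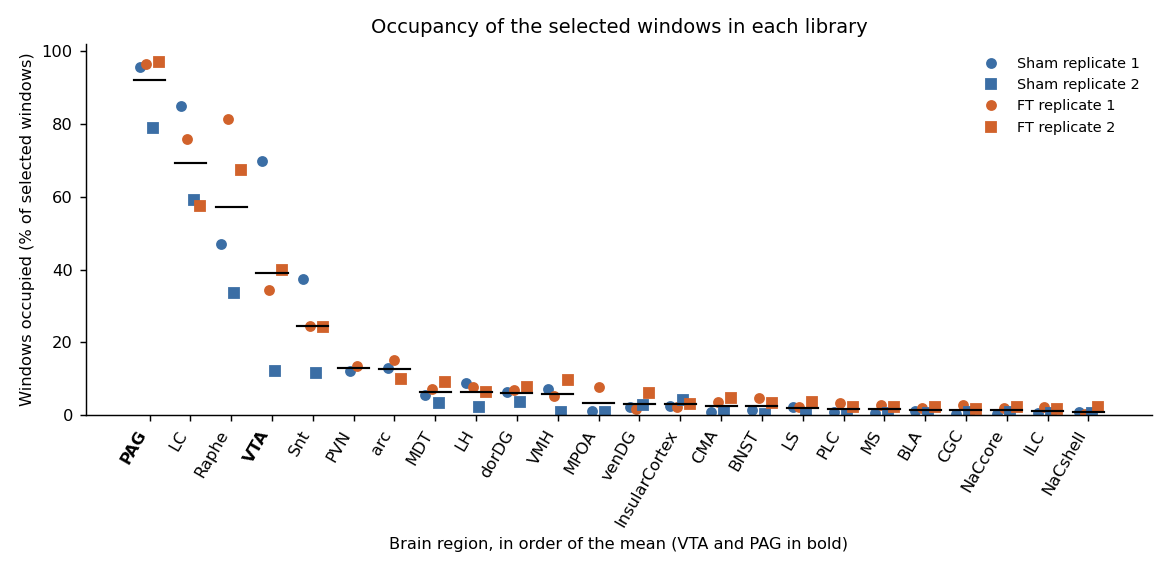
Share of the 887 windows occupied in each of 92 libraries (points; blue Sham, orange FT, circles replicate 1, squares replicate 2) with the mean of each region (bars), in order of the mean. PAG is highest at 92.0%, LC (69.3%) and Raphe (57.3%) stand above VTA (39.1%), and no library outside midbrain and hindbrain is above 15.1%.

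Since the rule fixed these shares in part, the comparison was repeated on libraries that took no part in choosing. Windows were chosen on replicate 1 alone, in 3 or more of the 4 VTA and PAG libraries and at most 15% of the other replicate 1 libraries, and their occupancy was measured in replicate 2. This gave 817 windows, 588 of them among the 887. Their share was 87.5% in PAG FT replicate 2, 61.9% in PAG Sham replicate 2, 26.2% in VTA FT replicate 2 and 5.51% in VTA Sham replicate 2. PAG was again far above VTA. The mean of VTA and PAG was 45.3% against 8.95% ± 14.4 (SD, n = 21) over the other regions. The difference was 36.3 percentage points (exact permutation test over region means, two-sided, p = 0.0198, adjusted p = 0.0216 by Benjamini-Hochberg over 12 tests). The choice itself favoured VTA and PAG over the other regions. Libraries of a region that resemble each other would give this direction for any pair so chosen. The p-value, here and in the other directions below, cannot separate that from a trait of the midbrain.

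That difference came mostly from PAG, although VTA was also above the mean of the other regions (8.95%). In replicate 2 the regions stood in the order PAG (74.7%), LC (53.7%), Raphe (47.4%), Snt (17.6%) and VTA (15.9%), followed by arc with 11.4%. VTA held rank 5 of 23 regions. Choosing on replicate 2 and measuring in replicate 1, or choosing on one treatment and measuring in the other, again left VTA at rank 5, below PAG, LC, Raphe and Snt in each of the 4 directions. VTA held 43.0% from replicate 2 to 1, 24.0% from Sham to FT and 21.9% from FT to Sham, against 72.8%, 74.6% and 44.1% in LC. The difference of VTA and PAG from the other regions was 28.1 to 44.7 percentage points over the 3 other directions (adjusted p = 0.0216 in each, exact permutation test). With VTA Sham replicate 1 left out of the choice, 2 of 3 libraries were enough and 14779 windows were chosen. Of these, PAG held 74.0% and VTA 1.86% in replicate 2. The PAG libraries alone could meet this choice with no VTA library, so the low VTA share was set in part by it.

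In the same held-out libraries the hindbrain was above the telencephalon, a contrast that the rule sets in part. Its limit on other libraries is wide enough for every hindbrain library, but keeps out windows occupied in most telencephalic libraries. Measuring in held-out libraries does not remove this, so the p-values below cannot separate it from the difference. The mean share was 39.6% in LC, Raphe and Snt and 3.23% ± 2.01 (SD, n = 13) in the telencephalic regions, a difference of 36.3 percentage points (exact permutation test over region means, two-sided, p = 0.00179, the smallest that 3 against 13 regions allow, adjusted p = 0.00306). Each hindbrain region was above each telencephalic region. The difference was 30.3 to 54.9 in the other 3 directions, each with the same p. Measured without the Raphe FT libraries it was 30.9, with Raphe at 31.2%. When VTA Sham replicate 1 took no part in the choice it was 15.5 (exact permutation p = 0.00714), over windows that PAG libraries alone could bring in.

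The diencephalon differed from the telencephalon by less, and the call depended on the libraries used to choose and to measure. From replicate 1 to 2 its mean was 5.45% against 3.23%, a difference of 2.21 percentage points (exact permutation test, two-sided, p = 0.12, adjusted p = 0.12). From replicate 2 to 1 it was 21.2% against 6.01%, a difference of 15.2 (exact permutation test, adjusted p = 0.000442). From Sham to FT the difference was 6.19 and from FT to Sham 7.59 (exact permutation tests, adjusted p = 0.00199 and p = 0.00236). PVN has no replicate 2 library, so 5 diencephalic regions were measured from replicate 1 to 2 and 6 in the other directions. The limit on other libraries bears on this contrast too, since the diencephalon has fewer libraries than the telencephalon. All these tests permute regions, so their p-values measure the spread between regions. Regions share the pooled animals, and the spread between pools or animals was not tested.

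**Figure D3:**
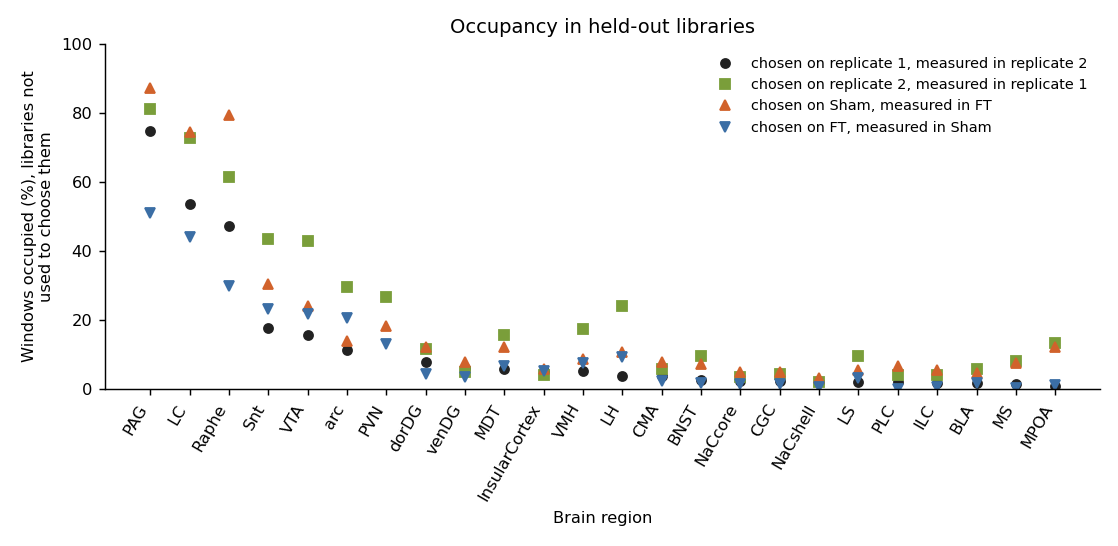
Share of chosen windows occupied in each region, measured only in libraries that were not used to choose them, for 4 directions of choosing and measuring (symbols). PAG, LC and Raphe are the 3 highest regions in every direction, and VTA, at 15.9% to 43.0%, has rank 5.

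The height of the peaks was not itself used by the rule. It comes from the same libraries and is tied to which windows are occupied, so it is given as a description. Each peak's score was expressed as its percentile within the list of its own library. Over the selected windows the median percentile in PAG was 74.7 and 74.5 in Sham and 76.5 and 77.4 in FT. In VTA it was 22.8 and 23.0 in Sham and 29.4 and 30.8 in FT. The libraries of the 2 regions did not overlap. Each library counts only the members it occupied, 699 to 861 in PAG and 109 to 620 in VTA, so these medians are not over the same windows.

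Windows occupied in a similar number of libraries serve as a reference. The members were occupied in 6 to 20 of the 92 libraries, as were 65835 windows in all, members included. Most members were occupied in all 4 PAG libraries, which was not asked of these windows. A higher percentile of members in PAG is thus in part set by the rule. In PAG the members' mean percentile was 75.8 ± 1.43 against 62.3 ± 2.51 for these windows (SD, n = 4). In LC it was 67.3 ± 5.87 against 43.6 ± 7.23. In VTA it was 26.5 ± 4.18 against 25.9 ± 1.85, and in Snt 33.2 ± 3.15 against 33.1 ± 1.53, differences smaller than the spread between libraries. Raphe again divided by treatment: members had a percentile of 57.3 and 55.6 in its FT libraries and 31.7 and 30.9 in its Sham libraries. The sets of the other 4 pairs also stood above the reference windows in each of their own regions. Their means were for example 51.6 against 36.9 in NaCcore, 60.5 against 49.9 in dorDG and 29.7 against 24.4 in MS.

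Width and significance followed the same order. Peaks over members had a median width of 2200 ± 141 bp in PAG, 2012 ± 144 bp in LC, 1700 ± 294 bp in Raphe and 1300 ± 81.6 bp in VTA (SD, n = 4). The median −log10 p of those peaks was 47.7 ± 16.5 in PAG, 24.3 ± 7.66 in LC, 13.6 ± 6.86 in Raphe and 6.78 ± 1.13 in VTA. In VTA the median was not far above the lowest values in the lists, which begin at 4. Where a VTA library did not occupy a member, it mostly had no peak there at all: the share without any covered base was 55.1% and 84.3% in Sham and 74.6% and 76.8% in FT.

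**Figure D4:**
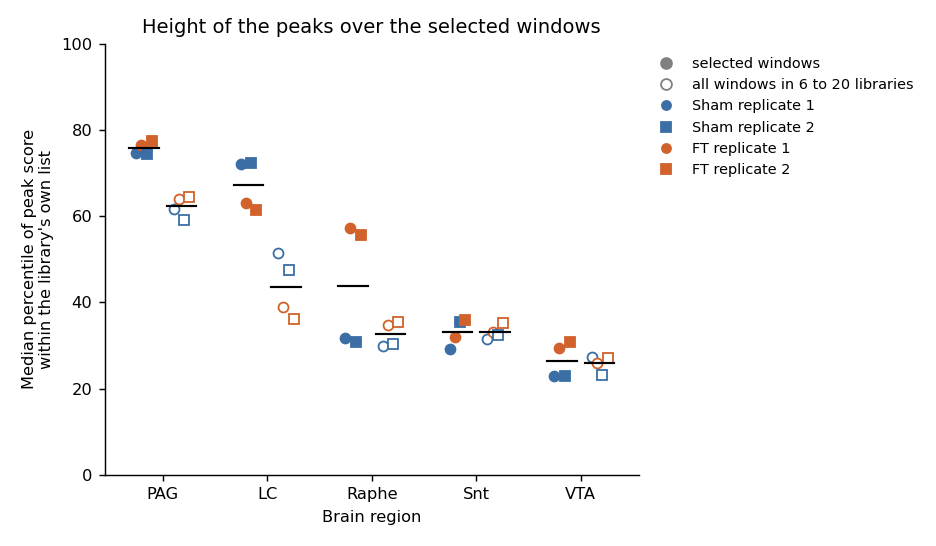
Median percentile of the peak score over the selected windows (filled symbols) and over all windows occupied in 6 to 20 libraries (open symbols), by library, with the mean of 4 libraries as bars. In PAG the selected windows have a mean of 75.8 against 62.3, in LC 67.3 against 43.6, and in VTA 26.5 against 25.9.

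How the PAG windows reached other regions was examined over all 14373 of them, split into 5 equal classes by their mean peak score percentile in PAG. In LC the share occupied went from 40.1% in the lowest to 86.3% in the highest class in Sham replicate 1, and from 7.86% to 56.4% in FT replicate 2, with the other LC libraries between them in the highest class. In Raphe FT it went from 15.6% to 66.6% in replicate 1 and from 8.52% to 60.4% in replicate 2, whereas Raphe Sham reached 20.4% and 13.0% in the highest class. VTA Sham replicate 1 held 2.54% in the lowest and 10.8% in the highest class. The other 3 VTA libraries did not follow it, with 0.383% to 2.57% in the highest class and 1.74% to 3.51% in the lowest. Snt Sham replicate 1 resembled VTA Sham replicate 1, with 3.69% and 13.7%. Members made up 3.58% of the lowest class and 12.2% of the highest.

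**Figure D5:**
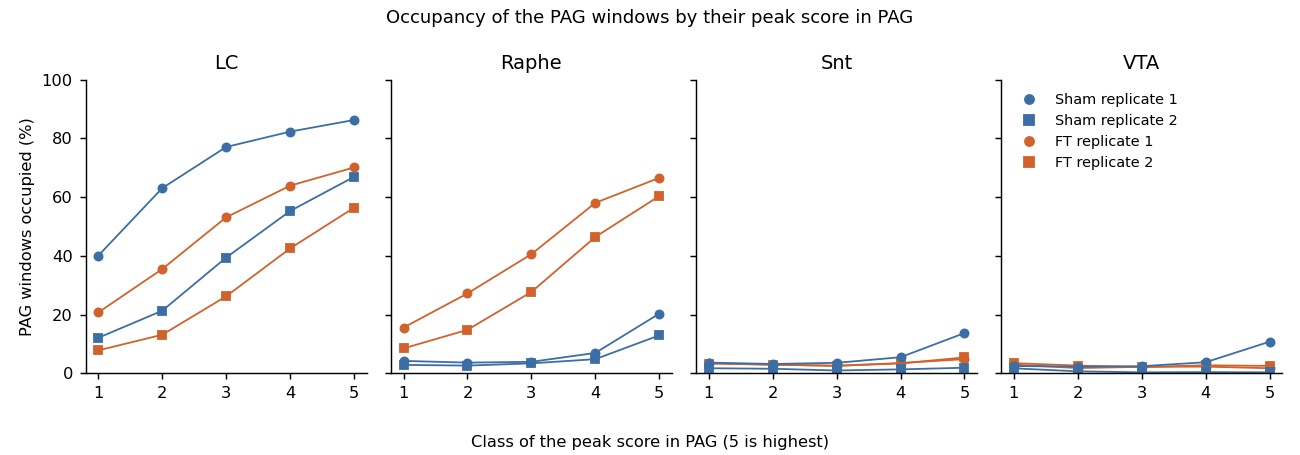
Share of 14373 PAG windows (in 3 or more PAG libraries and at most 12 libraries outside VTA and PAG) occupied in each LC, Raphe, Snt and VTA library, by class of their mean peak score percentile in PAG (5 classes of equal size). In the highest class Raphe FT libraries hold 60.4% and 66.6% and Raphe Sham libraries 13.0% and 20.4%, and VTA Sham replicate 1 holds 10.8% against at most 2.57% in the other VTA libraries.

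Requiring VTA as well as PAG selected windows with wide hindbrain occupancy. LC occupied 69.3% of members on average and 46.7% of the 14373 PAG windows, Raphe 57.3% and 21.6%, and Snt 24.4% and 3.65%. For the 19 regions outside midbrain and hindbrain the values were 3.69% and 2.07%. VTA windows taken alone looked different: of the 1099 windows in 3 or more VTA libraries, LC occupied 14.6%, Raphe 48.2%, Snt 56.5% and PAG 10.1%. These sets overlap and were all chosen by occupancy, so no test was made.

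The members themselves fell into unlike groups. LC and Raphe were each occupied in 3 or more libraries at 326 members (36.8%), LC without Raphe at 216, Raphe without LC at 74, and neither at 271 (30.6%). Members of the first group had a median percentile of 92.3 in PAG and were occupied in VTA Sham replicate 1 at 85.6%, but in the other 3 VTA libraries at a mean of 14.0%. Members with neither had a percentile of 49.8 in PAG, 50.2% in VTA Sham replicate 1 and 46.7% in the other 3. The 64 windows with more VTA than PAG libraries had mean shares of 49.2% in Snt, 48.4% in Raphe, 30.1% in LC, 27.1% in arc and 13.3% in LH. The 79 windows in 3 or more libraries of each region had 53.8% in LC, 54.7% in Raphe and 35.8% in Snt, with a median of 10 libraries outside VTA and PAG, so they were not restricted to VTA and PAG either.

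Whether fluoxetine altered occupancy of these windows was asked over the 4 pools. The mean share in VTA and PAG was 82.8% and 45.5% in the Sham pools and 65.5% and 68.4% in the FT pools. Both FT pools lay between the Sham pools. FT minus Sham was 2.82 percentage points, with means of 67.0% ± 2.07 and 64.1% ± 26.3 (SD, n = 2), smaller than the spread between Sham pools. Without Sham replicate 1 the difference was 21.4, without Sham replicate 2 it was -15.8, and without the library VTA Sham replicate 1 alone it was -3.61. The lists differed in length as well. FT lists held 46592 and 48259 peaks in VTA and 41637 and 42639 in PAG. Sham lists held 43051 and 32828 in VTA and 39372 and 30192 in PAG. The part of list length in these values and in the counts below was not tested. The rule used these 8 libraries, so the values are a description with no test.

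Window by window, treatment separated few members. In VTA, 74 of 887 (8.34%) were FT-only, against 8.84% of the 94556 windows occupied in VTA. Another 7 (0.789%) were Sham-only, against 0.462% of all windows. In PAG, 21 (2.37%) were FT-only, against 6.51% of 86407 windows, and 1 was Sham-only, against 0.545%. The PAG counts are low by the rule, since most members had to be occupied in all 4 PAG libraries. The rule bears on the VTA counts too: the 556 members with 1 VTA library could be neither FT-only nor Sham-only there. In LC, 14 of 817 windows (1.71%) were FT-only, against 2.49%, and 20 (2.45%) Sham-only, against 1.84%. The VTA share depended on the lists: on equal-size lists 17 of 141 members occupied in VTA (12.1%) were FT-only, against 4.96% of all windows occupied there. At the stricter threshold 35 of 853 members occupied in PAG (4.10%) were FT-only, against 7.31%, and 2 (0.234%) Sham-only, against 0.173%. The cause of these shifts was not tested.

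Most members lay singly. The 887 windows formed 820 loci of adjoining windows, 756 of them of 1 window, 61 of 2 and 3 of 3. Another member lay within 100 kb of 344 windows (38.8%). Windows occupied in at least 50% of the other libraries, here called shared windows, adjoined 167 members (18.8%), and 177 (19.95%) lay more than 50 kb from the nearest one. The windows in 6 to 20 libraries had 15.6% and 23.8%, and the other 4 sets 7.80% to 16.1% and 23.4% to 31.9%. Members next to a shared window seldom held the centre of the PAG peak that covered them (10.7%), against 64.5% of the others, so that the centre mostly lay in another window. The members next to a shared window had a mean share of 45.4% in VTA and 53.6% in LC, and the remaining 720 had 37.6% and 73.0%.

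The longest loci show both kinds of window. At chr12:19166001-19169000, VTA libraries occupied 2, 2, 2 and 3 of the 3 windows (Sham replicates 1 and 2, then FT) and PAG libraries 3, 2, 3 and 3. Its peaks stood at percentiles of 95.2 to 97.4 in PAG, 74.8 to 93.7 in LC and 29.2 to 56.6 in VTA. No library outside midbrain and hindbrain occupied it, but all 4 LC, all 4 Raphe and 3 Snt libraries did. It was the locus of 3 windows with VTA peaks in every library.

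The other 2 loci of 3 windows had PAG peaks in all libraries and a VTA peak only in Sham replicate 1. At chr12:50459001-50462000 the PAG percentiles were 94.3 to 95.5 and the VTA one 17.5. At chr4:230953001-230956000 they were 96.4 to 98.3 and 22.1. All 4 LC libraries and both Raphe FT libraries occupied all 3 windows of both loci. Of the 2 Raphe Sham libraries, replicate 2 occupied 1 window and replicate 1 none at the first locus, and replicate 1 occupied 3 and replicate 2 none at the second.

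Of the loci of 2 windows, chr10:104537001-104539000 had the largest difference between mean occupancy in VTA and PAG libraries and in the others, at 0.738. Both windows were occupied in 3 of 4 VTA libraries, with percentiles of 32.5 to 50.9, and in all PAG libraries, with 96.1 to 97.2. All LC, Raphe and Snt libraries occupied at least 1 of them, and 1 other library did. The next 6 were chr13:98393001-98395000, chr12:7897001-7899000, chr19:55737001-55739000, chr17:89484001-89486000, chr17:8998001-9000000 and chr2:215314001-215316000. Each of these had all 4 PAG libraries, 2 or 3 VTA libraries and 2 to 4 LC libraries, and VTA Sham replicate 2 occupied none of them.

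Of the 4 windows occupied in all 8 VTA and PAG libraries, 1 is the middle window of the first locus. Upstream of that locus in coordinates, chr12:19159001-19160000 came closest to the label, with only 3 libraries outside VTA and PAG: Raphe FT replicate 1, LC FT replicate 1 and CMA FT replicate 2. Its percentiles were 36.9, 7.04, 57.9 and 58.9 in VTA (Sham replicates 1 and 2, then FT) and 28.7, 28.5, 40.1 and 47.5 in PAG. Its VTA peaks thus ran from low to middling, and its PAG peaks stood below the middle of their lists. The window at chr6:52749001-52750000 was also occupied in all LC and Raphe libraries and in all 4 dorDG libraries. The window at chr7:117740001-117741000 was also occupied in all LC libraries, in both Raphe FT libraries, in both PVN libraries, in both arc FT libraries and in both dorDG FT libraries. Each of the last 2 stood at the limit of 12 other libraries.

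How the lists were cut changed which windows met the rule. On equal-size lists, the 19378 best-scoring peaks of each library, 353 windows met it, of which 108 were among the 887. At 250 bp of coverage 1106 windows met it (482 shared) and at 750 bp 602 (232 shared). The order of regions in the 353 windows was similar, with 93.4% in PAG, 63.3% in LC, 46.6% in Raphe, 40.1% in VTA and 26.7% in Snt. These windows were chosen anew by the same rule, which needs at least 1 VTA library. The 887 windows themselves, measured on equal-size lists, had 71.0% in PAG, 46.1% in LC and 19.7% in Raphe. They had only 6.54% in VTA and 5.47% in Snt.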

How the data were processed

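Peak lists of H3K27ac ChIP-seq were used as deposited. The authors aligned reads to Rn5 (BWA in the submitters' processing notes, version not given in the sources used here) and called peaks with DFilter in each library separately. The authors' lists give peak position, a maximum score and a rounded normalised tag count score, a −log10 p-value of at least 4, and a false discovery rate in percent. Read counts are not in these lists, so precision could not be computed from depth. Starts were read as counting from 0; coordinates are 1-based.

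Peak coverage was summed in 1 kb windows in Python 3.11.15 (numpy 2.4.6, pandas 2.3.3; figures with matplotlib 3.10.9), and occupancy required 500 bp. The study tested reads per peak; occupancy of windows took that place here. Tests were exact permutation tests over region means in held-out libraries, two-sided, threshold 0.05. Planned tests of VTA against PAG and of FT against Sham over the members are not printed, because the rule chose the members on the same libraries. Scripts were tested on simulated data. The members and lists were chosen with earlier results of these data known. Named loci are the 10 longest (ties by difference of mean occupancy, then position) and up to 5 further windows in all 8 VTA and PAG libraries with the fewest others, of which 3 existed. Marker lists fixed for an Rn5 annotation were not used here.

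The study processed Sham and FT libraries of one replicate number in parallel, so numbers pair them. Over windows, the replicate 1 minus replicate 2 differences of Sham and of FT correlated at -0.00449 in VTA and 0.0773 in PAG. Replicates of a treatment were pools of different animals and regions of a replicate share animals, by the study's methods. The permutation tests shuffled regions, so p-values measure the spread between regions and not between pools or animals. Alternatives were stricter (−log10 p of 6 or more) and equal-size lists, 250 and 750 bp, shifted windows, other limits and left-out replicates. The 4 input libraries were not analysed here.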

Additional observations from a re-analysis of the deposited data

Results flagged for a closer look

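PAG Sham replicate 2 occupied 78.8% of the 887 windows and lay far from the other 3 PAG libraries (95.6% to 97.1%): its gap to the nearest was 0.92 of the range of the region. It also had the shortest of the VTA and PAG lists, with 30192 peaks. Of 21 regions with 4 libraries this was the single one flagged, and chance flags about 1 in 20.

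HB took no part in the rule. HB FT replicate 1 occupied 14.3% of the windows (127), close to the highest library outside midbrain and hindbrain (15.1%), and HB Sham replicate 1 occupied 0.451% (4). Their median peak widths were 1600 and 500 bp, and the part of this in the difference was not tested.

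Chromosome X was left out as well. The same rule held for 16 of its 7842 occupied windows, with mean shares of 96.9% in PAG, 75.0% in LC, 45.3% in Raphe, 31.2% in VTA and 17.2% in Snt, an order of regions like that on the other chromosomes.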

How the results depend on the processing

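The number of windows was 353 on equal-size lists, 377 with at most 10% and 1447 with at most 20% of the other libraries, and 175 with 6 or more of 8 libraries. It was 524 without Sham replicate 1 and at most 944 without another pool. Without 1 library alone, a setting chosen after the data were seen, it was 411 (VTA Sham replicate 1), 198, 203, 209 and 317 (PAG FT replicate 2, PAG FT replicate 1, PAG Sham replicate 1 and PAG Sham replicate 2) and 678 to 822 (the other VTA libraries). Chosen after the data were seen, 3 or more libraries in each of VTA and PAG left 79 windows, and 11 members were in no hindbrain library and 108 in 2 or fewer. The stricter threshold (666), 250 bp (1106), 750 bp (602) and shifted windows (870) stayed within 1.5 times the main count.

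The held-out differences of VTA and PAG from other regions and of hindbrain from telencephalon kept their direction and call in all alternatives run. Occupancy in VTA and PAG and the limit on other libraries were part of each choice, so these calls are favoured by it. Chosen without VTA Sham replicate 1, the first difference was 33.6 (exact permutation test over region means, p = 0.0395). VTA held 1.86% there, below Snt (2.75%). PAG libraries alone could meet that choice with no VTA library, so this difference describes PAG windows and cannot speak for VTA. The held-out difference of diencephalon from telencephalon was 2.21. It passed the threshold from replicate 2 to 1 (15.2), from Sham to FT (6.19) and from FT to Sham (7.59). Chosen without VTA Sham replicate 1, again with no VTA library needed, it was -0.544, and the cause was not tested.

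FT minus Sham of the share in VTA and PAG ranged from -15.8 to 21.4 when replicates were left out, and was -3.61 without VTA Sham replicate 1. With the replicate number as a block it was 2.82, from -17.2 in replicate 1 and 22.9 in replicate 2. FT-only members of VTA numbered 17 on equal-size lists, a share of 12.1% against 4.96% of all windows, unlike the full lists (8.34% against 8.84%). At the stricter threshold PAG had 35 FT-only members (4.10% against 7.31%) and 2 Sham-only members (0.234% against 0.173%).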

Other observations

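Members were spread over all 20 chromosomes. Chromosome 12 held 46 (5.19%), against 3.10% of the windows in 6 to 20 libraries, and chromosomes 2 and 15 held 4.96% and 2.03%, against 7.60% and 3.41%. The 1 Mb bin with the most members was also on chromosome 12, where 11 windows in 7 loci lay between 50157001 and 50674000. Their mean share was 93.2% in PAG, 86.4% in LC, 65.9% in Raphe and 40.9% in VTA. On chromosome 4, 8 windows between 383001 and 669000 had 93.8% in PAG, 90.6% in Raphe, 87.5% in LC and 40.6% in VTA. These bins were picked after their counts were seen and were not tested. Of the 550 bins that held a member, 345 held 1.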
